A study of Homo sapiens with 6 samples.

Results

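Fatty acid oxidation and ketone body transcripts were followed as a set of 41 genes out of the 57500 genes counted in each library. The 41 were listed by name and role, with earlier results of these data known, and cover the carnitine shuttle, mitochondrial and peroxisomal β-oxidation, ketone body enzymes, acyl-CoA thioesterases and regulators of the peroxisome proliferator-activated receptor (PPAR) family. All 41 were found in the count files, and 40 passed the filter on low counts. The gene left out of testing was PDK4.

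RNA was sequenced from wild-type HepG2 cells, an established human hepatocarcinoma line, after 24 h with added glycine (10 mM) or vehicle alone. Each group had 3 libraries, and the study's methods define a biological replicate as an experiment done on a different day. Both groups carried the same genotype, and the methods give the standard medium as already containing glycine, so the comparison is of added glycine. A single tumour-derived line stood for the hepatocyte.

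Long-chain fatty acids enter mitochondria as carnitine esters and are shortened there by repeated rounds of dehydrogenation, hydration, a second dehydrogenation and thiolytic cleavage. Peroxisomes take very long, branched and bile acid side chains through a parallel pathway. In the liver much of the acetyl-CoA is turned into ketone bodies for other organs. The nuclear receptor PPARα, with its partner RXRα and the coactivator PGC-1α, is known to switch on many of these genes in fasting.

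Libraries held between 31795489 and 58815986 counts, and 3 counts equalled 0.051 to 0.0944 CPM (the count relative to library size, here unscaled totals). The 10 most abundant genes took 6.73% to 7.69% of the counts and mitochondrial transcripts 1.94% to 2.82%. The hepatocyte markers ALB, AFP, APOA1, APOB, TTR, SERPINA1 and HNF4A were all present, at a summed level of 18620 to 24753 TPM (counts scaled for gene length and library size) with vehicle and 17092 to 20232 TPM with glycine. The leucocyte genes PTPRC and CD3E stood at 0 to 3 counts in every library, and CD68 stood at 43 to 117 counts with a log2 fold change of 0.63 (edgeR adjusted p = 0.0226), although other genes overlap 85.8% of its exon length. The fibroblast genes COL1A1 and PDGFRB were detected and moved in opposite directions, with log2 fold changes of 1.03 and -0.66, and the endothelial genes PECAM1 and CDH5 were not called. The part of these genes in the changes of the members was not tested.

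Glycine lowered 9 of the 40 tested members and raised none (edgeR quasi-likelihood test, adjusted p under 0.05; such genes are named called). The 9 were the ketone body enzyme BDH1, the branched short-chain dehydrogenase ACADSB, the fatty acid binding protein FABP1, the carnitine carrier SLC25A20, the regulators PPARGC1A and PPARA, the carnitine acetyltransferase CRAT, the electron carrier subunit ETFA and the peroxisomal thiolase ACAA1. Each fell by between 14.4% and 30.8%. The remaining 31 tested members were not called, among them CPT1A, which catalyses the step usually taken as rate limiting for mitochondrial oxidation.

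Of all 15492 genes tested, 13.3% were called, 6.54% lower and 6.71% higher with glycine. Among the members 22.5% were called, all of them lower. The share of members called lower was above that of all genes, and the share called higher was below it. At an unadjusted p under 0.05 there were 14 of the 40 tested members and 4225 of the 15492 tested genes. The median log2 fold change was -0.08 over the 40 members and 0.00 over all genes. Below 0 lay 27 members, while 49.2% of all genes did so.

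The members' changes were small, ranging from -0.53 to 0.25 on the log2 scale. In 16 members the 3 glycine libraries did not overlap with the 3 vehicle libraries, lower with glycine in 14 and higher in 2. Such separation was seen for 31.6% of all tested genes. The summed level of all 41 members was 3265, 3169 and 3244 TPM with vehicle and 3072, 2977 and 3064 TPM with glycine, with every glycine library below every vehicle library. As these were bulk samples, fewer cells of a type and less RNA per cell cannot be told apart.

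**Figure D1:**
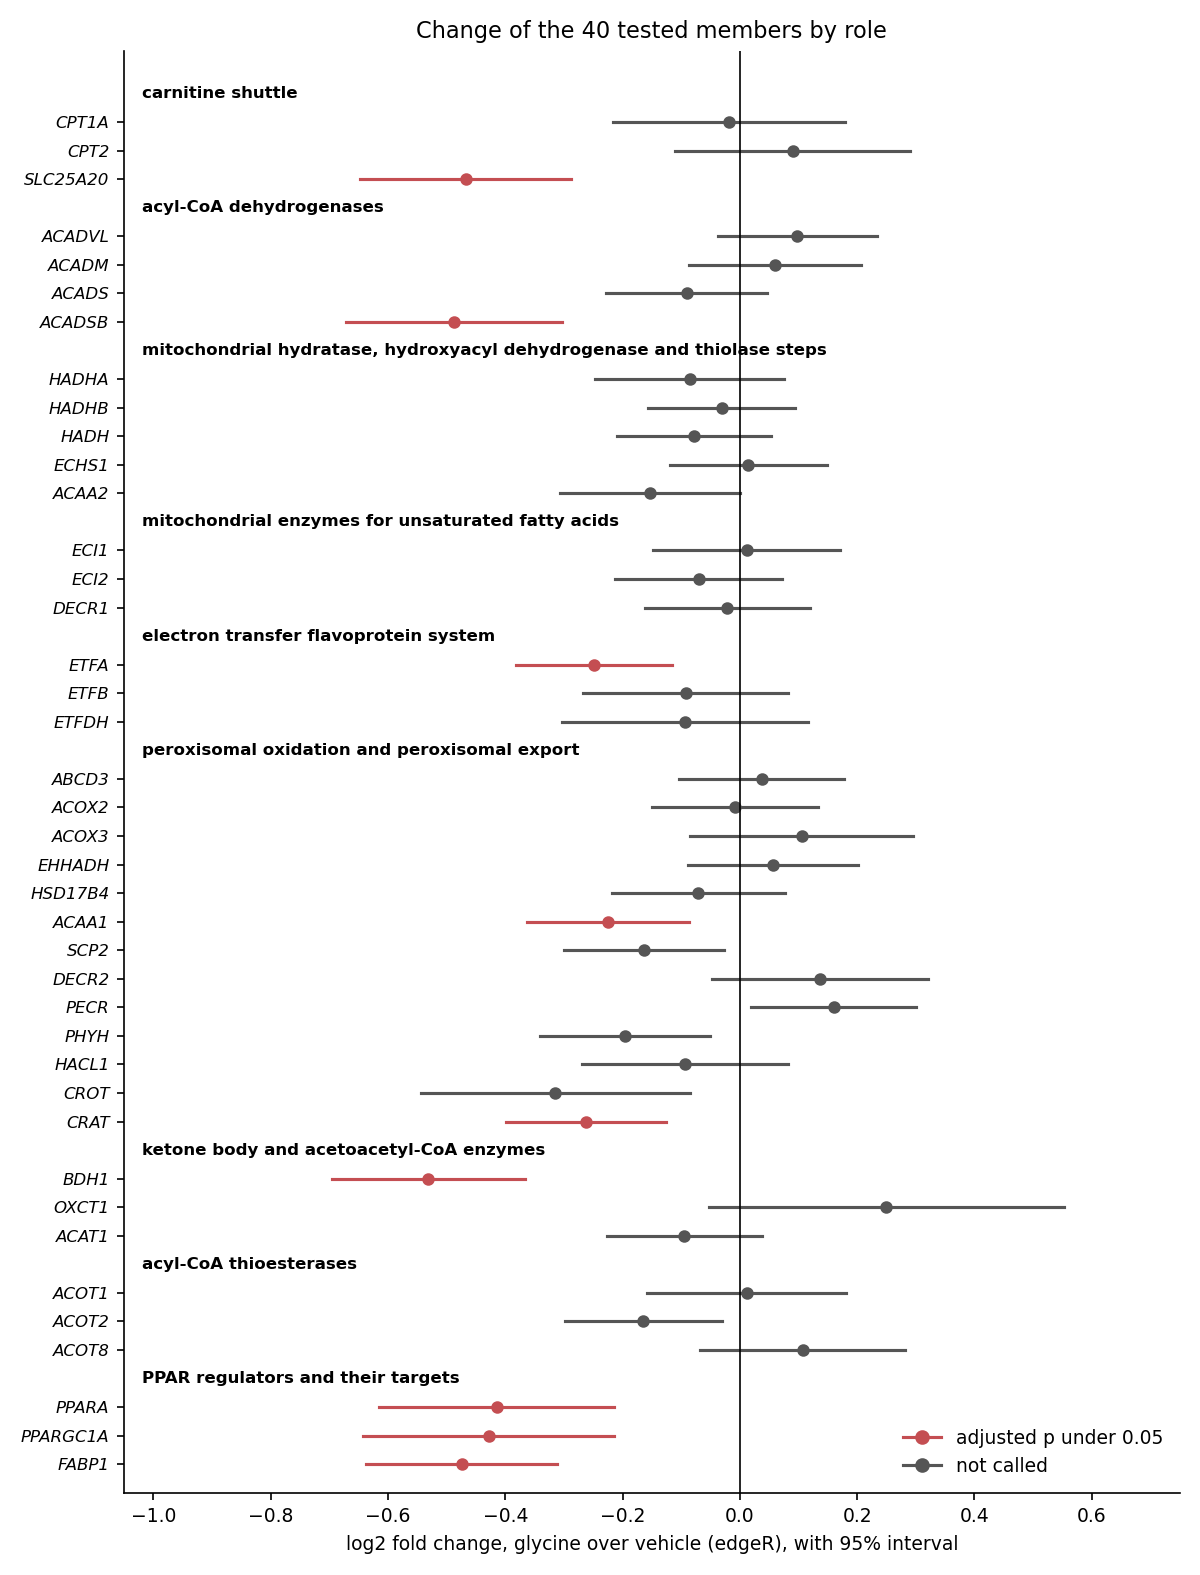
Log2 fold change of glycine over vehicle for the 40 tested members, grouped by role, with 95% intervals from the edgeR fit (horizontal axis: log2 units, n = 3 libraries per group). Red marks the 9 members called lower, and the intervals of most other members cross 0.

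The promoters of FABP1 and PPARA are shown because FABP1 was the only one of the 33 members with a RefSeq promoter whose window held a PPAR half-site hexamer, and because PPARA is the receptor that binds such sites and was itself called lower. The sequences come from RefSeq on GRCh38.p14, run 5′ to 3′ on the strand of the gene, and were cut to the stretch upstream of any annotated exon. FABP1 is read from chr2:88128117-88128312 on the minus strand and PPARA from chr22:46150276-46150520 on the plus strand. Capitals mark the hexamer AGGTCA where it was found, here on the opposite strand and 68 bases before the transcription start.
FABP1: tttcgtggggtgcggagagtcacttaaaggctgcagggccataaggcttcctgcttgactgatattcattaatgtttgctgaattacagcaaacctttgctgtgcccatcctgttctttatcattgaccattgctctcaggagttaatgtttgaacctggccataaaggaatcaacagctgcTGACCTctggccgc
PPARA: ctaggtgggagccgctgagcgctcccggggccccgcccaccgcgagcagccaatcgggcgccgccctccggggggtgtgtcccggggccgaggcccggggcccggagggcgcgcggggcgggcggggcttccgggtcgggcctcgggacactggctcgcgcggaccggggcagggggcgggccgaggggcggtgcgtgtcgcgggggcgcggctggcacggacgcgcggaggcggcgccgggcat

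Both were lowered by glycine, but their promoters differed in composition, with 46.9% G and C for FABP1 and 84.1% for PPARA. The full element bound by PPARα with RXRα is a direct repeat of the hexamer with 1 base between, AGGTCANAGGTCA, and was searched on both strands from 250 bases before to 50 bases after each start. It was found in 8 of 35116 promoters (0.0228%), and the looser form AGGNCANAGGNCA in 109 (0.310%). None of the 45 windows of the 33 members with a RefSeq promoter held either form. Of the 9 called members, 7 had such a window. The single hexamer, searched after the repeat had given no match, was in 13.8% of all promoters and in 1 member window, that of FABP1. On the strand of that hexamer, CGGCCA stands before it with 1 base between, and misses the looser form in its first letter only. Repeats with such a mismatch were not searched for, so their share of all promoters is not known. For the same reason the missing matches do not show that an element is absent. These matches are matches of letters in a short window, and binding was not measured.

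PPARA, PPARGC1A and FABP1 all fell, and PDK4 could not be tested. PPARA (ENSG00000186951, chr22:46150521-46243756) encodes PPARα. It stood at 61.8, 58.6 and 46.5 CPM in vehicle replicates 1 to 3 and at 42.4, 39.7 and 43.2 CPM with glycine. The third vehicle library was the lowest of its group but still above all glycine libraries. The log2 fold change was -0.41 ± 0.093 (SE, n = 3 per group, adjusted p = 0.0104 by edgeR).

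PPARGC1A (ENSG00000109819, chr4:23755041-23904089) encodes PGC-1α, the coactivator of PPARα and of mitochondrial gene programmes. Its libraries gave 12.3, 10.2 and 11.1 CPM with vehicle and 7.86, 8.05 and 9.03 CPM with glycine, without overlap. The log2 fold change was -0.43 ± 0.099 (SE, n = 3 per group, edgeR adjusted p = 0.0125). The call was lost, with adjusted p = 0.0504 and 0.0506, when vehicle replicate 1 or glycine replicate 2 was left out, and adjusted p ranged from 0.00130 to 0.0506 over 14 alternative analyses.

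FABP1 (ENSG00000163586, chr2:88122982-88128116) encodes the liver fatty acid binding protein, which carries fatty acids through the cytosol. It gave 129, 109 and 127 CPM with vehicle and 82.1, 92.1 and 88.9 CPM with glycine. The lowest vehicle library lay above the highest glycine library. FABP1 fell by 28.0% (95% interval -35.7% to -19.5%, log2 fold change -0.47 ± 0.075 SE, edgeR adjusted p = 0.00109). PDK4, a kinase that restrains pyruvate oxidation and a known PPARα target, gave 2, 0 and 2 counts with vehicle and 2, 1 and 2 counts with glycine. All 6 values were below the floor of 3 counts, so no difference in PDK4 was detectable at this depth.

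**Figure D2:**
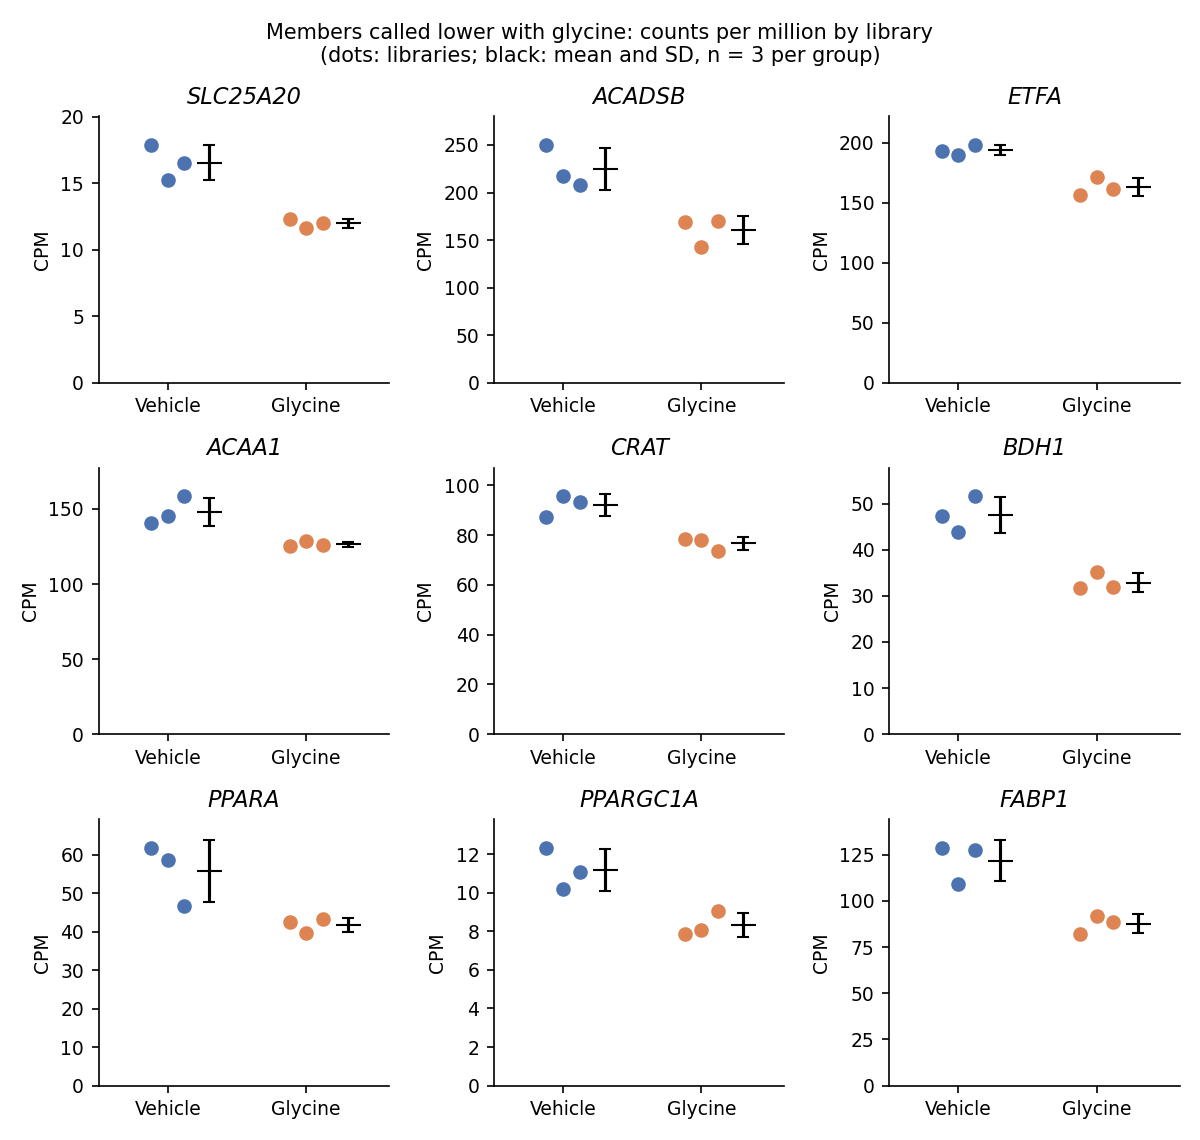
CPM (vertical axis, from 0) of the 9 members called lower, in each vehicle and glycine library, with the group mean and SD (n = 3). In every panel the 3 glycine libraries lie below the 3 vehicle libraries, closest together for PPARA and ACAA1.

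The carnitine shuttle split, with the carrier lowered and both transferases uncalled. SLC25A20 (ENSG00000178537, chr3:48856931-48898993) encodes the carnitine-acylcarnitine translocase of the inner mitochondrial membrane. Its level was 17.9, 15.3 and 16.6 CPM with vehicle and 12.3, 11.6 and 12.1 CPM with glycine. The groups were well separated, and SLC25A20 fell by 27.7% (log2 fold change -0.47 ± 0.084 SE, n = 3 per group, edgeR adjusted p = 0.00254).

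CPT1A (chr11:68754620-68844410), the outer membrane carnitine palmitoyltransferase, gave 64.8, 77.8 and 61.0 CPM with vehicle and 69.0, 71.5 and 60.4 CPM with glycine. These ranges overlapped, and the log2 fold change was -0.02 ± 0.092 (SE, edgeR adjusted p = 0.924). The 95% interval ran from -13.9% to 13.2%, so changes within those bounds remained compatible with these libraries. CPT2, the inner membrane transferase, gave a log2 fold change of 0.09 ± 0.093 (SE, edgeR adjusted p = 0.581).

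Of the acyl-CoA dehydrogenases, which carry out the first oxidation of each round, only ACADSB was called. ACADSB (ENSG00000196177, chr10:123008979-123058311) acts on short branched acyl-CoA, mainly from isoleucine. It gave 250, 217 and 208 CPM with vehicle and 169, 143 and 170 CPM with glycine. Both groups varied between libraries, yet they did not overlap, and ACADSB fell by 28.7% (log2 fold change -0.49 ± 0.085 SE, n = 3 per group, edgeR adjusted p = 0.00215). The straight-chain enzymes ACADVL, ACADM and ACADS had log2 fold changes of 0.10, 0.06 and -0.09, each with overlapping groups and adjusted p of at least 0.350.

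None of the 5 members that complete the mitochondrial round was called. These are HADHA and HADHB, the subunits of the trifunctional protein, the hydroxyacyl dehydrogenase HADH, the hydratase ECHS1 and the thiolase ACAA2. Their log2 fold changes ranged from -0.15 for ACAA2 to 0.01 for ECHS1, and only HADH had separate groups, at 51.7 to 54.2 CPM with vehicle and 48.9 to 50.9 CPM with glycine. The enzymes for unsaturated chains, ECI1, ECI2 and DECR1, lay between -0.07 and 0.01.

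Among the electron transfer flavoproteins, which pass electrons from the dehydrogenases to the respiratory chain, ETFA was called. ETFA (ENSG00000140374, chr15:76215355-76311472) encodes the α subunit, and gave 193, 190 and 198 CPM with vehicle against 156, 171 and 161 CPM with glycine. The vehicle libraries agreed closely and all lay above the glycine libraries. ETFA fell by 15.8% (log2 fold change -0.25 ± 0.062 SE, n = 3 per group, edgeR adjusted p = 0.0176). The call was lost without glycine replicate 1 (adjusted p = 0.0915) or glycine replicate 3 (0.0633), with a range of 0.00316 to 0.0915 over the 14 alternatives. Its partner subunit ETFB and the dehydrogenase ETFDH both had a log2 fold change of -0.09, with overlapping groups.

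In the 5 mitochondrial groups together, 3 of 18 members were called lower (16.7%, against 6.54% of all tested genes) and none higher. The median of the 18 was -0.07 on the log2 scale. For the 15 uncalled mitochondrial members, no 95% interval reached beyond 0.31 log2 units in either direction.

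Peroxisomal oxidation and export contributed 13 members, of which 2 were called lower (15.4%, against 6.54% of all tested genes) and none higher. Their median log2 fold change was -0.07. CRAT (ENSG00000095321, chr9:129094810-129111189) moves acetyl groups onto carnitine in peroxisomes and mitochondria. It gave 87.1, 95.6 and 93.2 CPM with vehicle and 78.2, 78.1 and 73.5 CPM with glycine. The groups did not overlap, with a log2 fold change of -0.26 ± 0.063 (SE, n = 3 per group, edgeR adjusted p = 0.0151). Without glycine replicate 3 the adjusted p was 0.0672, the highest of the 14 alternatives, and the lowest was 0.00417.

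ACAA1 (ENSG00000060971, chr3:38103129-38137242) encodes the peroxisomal 3-ketoacyl-CoA thiolase. It gave 141, 145 and 159 CPM with vehicle and 126, 129 and 126 CPM with glycine. The glycine libraries lay close together, below all vehicle libraries, and the log2 fold change was -0.22 ± 0.064 (SE, n = 3 per group, edgeR adjusted p = 0.0342). This was the weakest of the 9 calls. It was lost when vehicle replicate 3 (adjusted p = 0.106) or glycine replicate 1, 2 or 3 (0.108, 0.0746 and 0.0935) was left out, and with a replicate block (0.0618), over a range of 0.0151 to 0.108. Other genes, mainly DLEC1 on the opposite strand, overlap 21.2% of the exon length of ACAA1, and the strand setting of the counts is not given in the sources used here.

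Of the 11 uncalled peroxisomal members, 4 had groups without overlap, a separation seen for 31.6% of all tested genes. CROT, the carnitine octanoyltransferase, gave 8.76, 8.29 and 8.60 CPM with vehicle and 6.08, 6.66 and 7.82 CPM with glycine, a log2 fold change of -0.31 ± 0.106 (SE, edgeR adjusted p = 0.0698). It came under the threshold only without glycine replicate 3 (adjusted p = 0.0343), in a range of 0.0343 to 0.216. PHYH, which starts the breakdown of phytanic acid, had a log2 fold change of -0.20 (adjusted p = 0.0723), and the sterol carrier protein SCP2 one of -0.16 (0.112).

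PECR, a trans-enoyl-CoA reductase of the peroxisome, went the other way without being called. It gave 49.9, 45.2 and 50.4 CPM with vehicle and 53.7, 54.4 and 54.3 CPM with glycine, a log2 fold change of 0.16 (edgeR adjusted p = 0.131). DECR2, the peroxisomal dienoyl-CoA reductase, had a log2 fold change of 0.14 and overlapping groups. It was called higher only when vehicle replicate 3 was left out (adjusted p = 0.0392, against 0.336 with all libraries and at most 0.698 in the alternatives). The transporter ABCD3, the oxidases ACOX2 and ACOX3, the multifunctional enzymes EHHADH and HSD17B4 and the lyase HACL1 had log2 fold changes between -0.09 and 0.11, all with overlapping groups.

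The ketone body enzymes held the member with the largest change. BDH1 (ENSG00000161267, chr3:197509783-197573323) interconverts acetoacetate and 3-hydroxybutyrate in the mitochondrial matrix. It gave 47.3, 43.8 and 51.6 CPM with vehicle and 31.6, 35.2 and 31.8 CPM with glycine. The gap between the groups was wider than the spread within either, and BDH1 fell by 30.8% (95% interval -38.3% to -22.4%, log2 fold change -0.53 ± 0.076 SE, edgeR adjusted p = 0.000517).

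OXCT1, the transferase that activates acetoacetate for oxidation outside the liver, had the lowest level per length of the tested members. Its counts were 77, 91 and 84 with vehicle and 87, 176 and 115 with glycine, or 2.20, 2.61 and 2.34 CPM against 2.73, 3.01 and 2.72 CPM. All glycine libraries lay above the vehicle libraries, but the log2 fold change of 0.25 ± 0.140 was not called (SE, n = 3 per group, edgeR adjusted p = 0.277). ACAT1, the mitochondrial acetoacetyl-CoA thiolase, had a log2 fold change of -0.09 with overlapping groups.

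None of the acyl-CoA thioesterases, which release free fatty acids from CoA, was called. ACOT2 of the mitochondrion had separate groups, at 103 to 112 CPM with vehicle and 91.5 to 96.5 CPM with glycine (log2 fold change -0.17, edgeR adjusted p = 0.101). Its cytosolic neighbour ACOT1 was at 0.01 and the peroxisomal ACOT8 at 0.11 on the log2 scale. ACOT1 and ACOT2 share 908 stretches of 50 bases, 53.1% of those in ACOT1 and 37.3% of those in ACOT2, so the division of reads between them is uncertain.

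**Figure D3:**
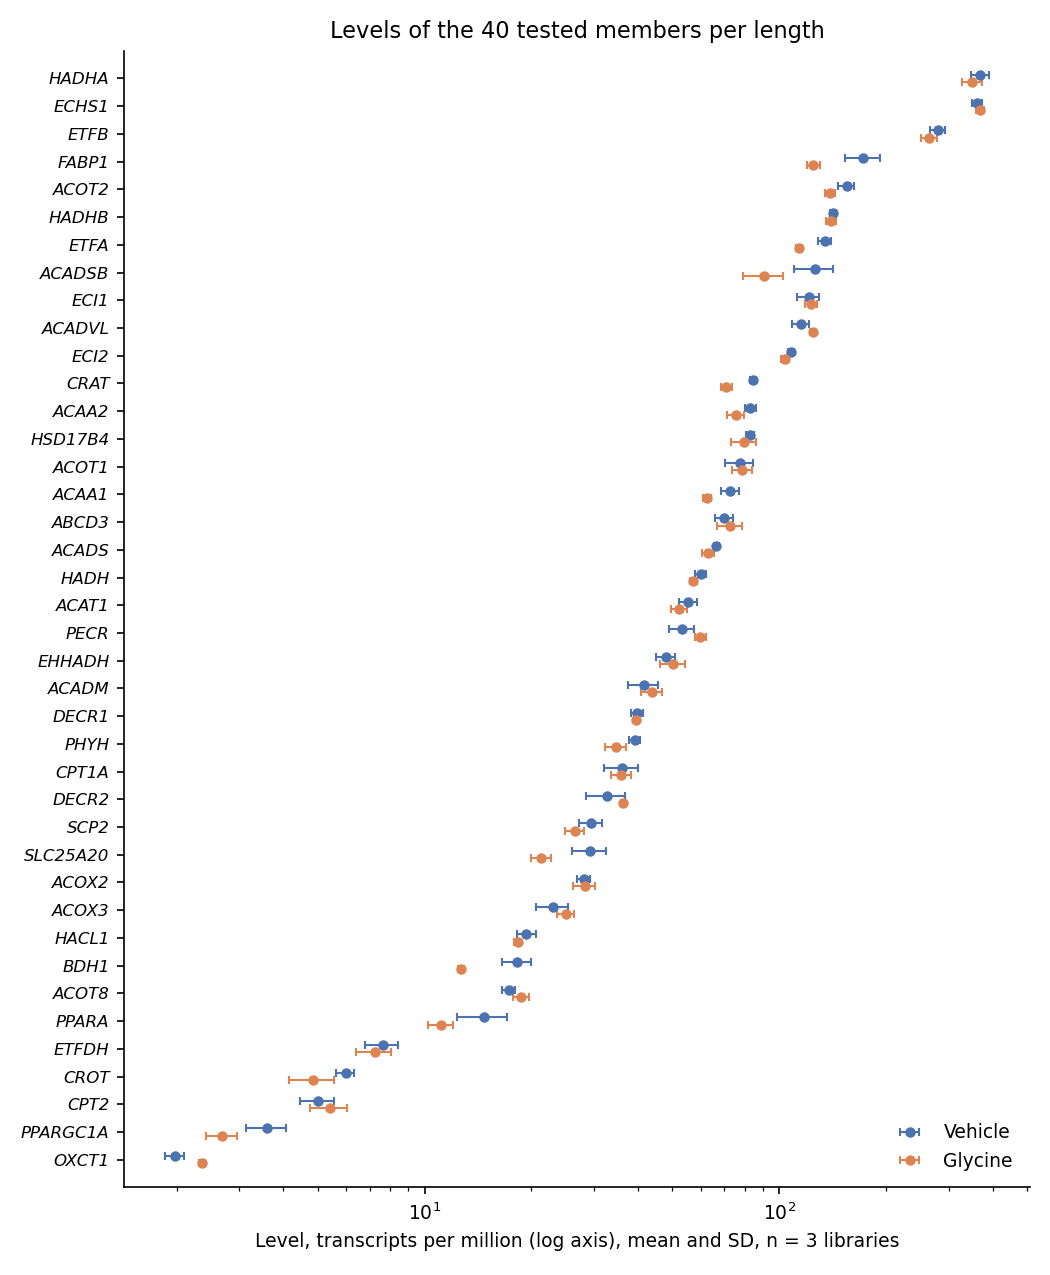
Level of the 40 tested members in TPM on a log axis, mean and SD of 3 libraries per group, ordered by the vehicle mean. HADHA and ECHS1 lie at the top and PPARGC1A and OXCT1 at the bottom, and the order of the members is much the same in both groups.

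Per unit length, the members' levels with vehicle ranged from 367 ± 21.5 TPM for HADHA (SD, n = 3) to 0.029 ± 0.026 TPM for PDK4. HADHA and ECHS1 (361 ± 11.2 TPM) did not differ beyond their spread, and were followed by ETFB at 279 ± 13.5 TPM and FABP1 at 172 ± 19.7 TPM. In the middle stood the next neighbours CPT1A at 36.0 ± 4.02 TPM and DECR2 at 32.7 ± 4.13 TPM, whose values overlapped. At the low end were CROT (5.99 ± 0.349 TPM), CPT2 (5.02 ± 0.543 TPM), PPARGC1A (3.60 ± 0.460 TPM) and OXCT1 (1.98 ± 0.118 TPM).

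With glycine, the same 3 genes, HADHA, ECHS1 and ETFB, held the top places at 350, 368 and 264 TPM. FABP1 moved from place 4 to place 6 of 41, ACADSB from 8 to 11 and CRAT from 12 to 16. The 9 called members lay between FABP1 at 172 TPM and PPARGC1A at 3.60 TPM with vehicle, and none of the 3 highest members was called.

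Among 36 further fatty acid oxidation and ketone body genes outside the 41, 28 were tested. Of these, 3 were called lower (10.7%, against 6.54% of all tested genes) and none higher. BDH2, a cytosolic hydroxybutyrate dehydrogenase, gave 11.5, 12.6 and 12.2 CPM with vehicle and 8.27, 9.02 and 8.22 CPM with glycine (log2 fold change -0.50 ± 0.087 SE, edgeR adjusted p = 0.00211). The hydratase-domain gene ECHDC2 had a log2 fold change of -0.41 (adjusted p = 0.00473). ACACB, which makes the malonyl-CoA that inhibits CPT1, had one of -0.32 (adjusted p = 0.0440). The ACACB call was lost in 7 of the 14 alternatives, among them those without vehicle replicate 1 or 2 (adjusted p = 0.158 and 0.0765) or glycine replicate 1, 2 or 3 (0.0559, 0.155 and 0.0785). The median of the 28 was -0.05.

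Of 16 further regulators, 3 were called lower and 1 higher, together 25% against 13.3% of all tested genes. CREB3L3, a liver transcription factor that works with PPARα in fasting, gave 36.2, 41.2 and 40 CPM with vehicle and 23.0, 23.9 and 22.1 CPM with glycine. Its log2 fold change of -0.77 ± 0.072 (SE, edgeR adjusted p = 1.43e-05) was larger in size than that of any member. RXRA, the partner of PPARα, was at -0.28 (adjusted p = 0.0148) and ESRRA, a nuclear receptor that works with PGC-1α, at -0.22 (0.0417). PPARD, the δ form of PPAR, was at 0.22 (0.0284).

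These smaller calls were less stable. The call of RXRA was lost without glycine replicate 3 (adjusted p = 0.0691, range 0.00262 to 0.0691). ESRRA lost it in 8 alternatives, among them each removal of a library other than vehicle replicate 2, with adjusted p of up to 0.132. PPARD lost it in 6, again with each library other than vehicle replicate 2, with adjusted p of up to 0.107.

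A list of further genes outside the 41, taken as PPARα targets, held calls in the direction opposite to FABP1. Of 14 listed, 11 were tested, 3 were called higher (27.3%, against 6.71% of all tested genes) and none lower. The median log2 fold change of the 11 was 0.17, with 7 above 0 and 4 below. TXNIP, PDK1, PDK2 and PDK3 were among the 11 and were not called. PLIN5 was also not called, at a log2 fold change of -0.54 (edgeR adjusted p = 0.0973), larger in size than that of FABP1. PLIN5 gave 1.28, 1.23 and 1.14 CPM with vehicle and 0.909, 0.889 and 0.711 CPM with glycine, without overlap. VNN1, a pantetheinase, gave 1.68, 1.63 and 1.08 CPM with vehicle and 2.44, 3.08 and 3.22 CPM with glycine (a rise of 100.3%, 95% interval 51.5% to 165%, edgeR adjusted p = 0.00338). The lipid droplet gene CIDEC was at 0.35 (adjusted p = 0.0352) and the fatty acid transporter CD36 at 0.34 (0.0335). Both were lost in 6 alternatives, the DESeq2 test and each removal of a library other than vehicle replicate 2, with adjusted p of up to 0.149 for CIDEC and 0.110 for CD36.

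**Figure D4:**
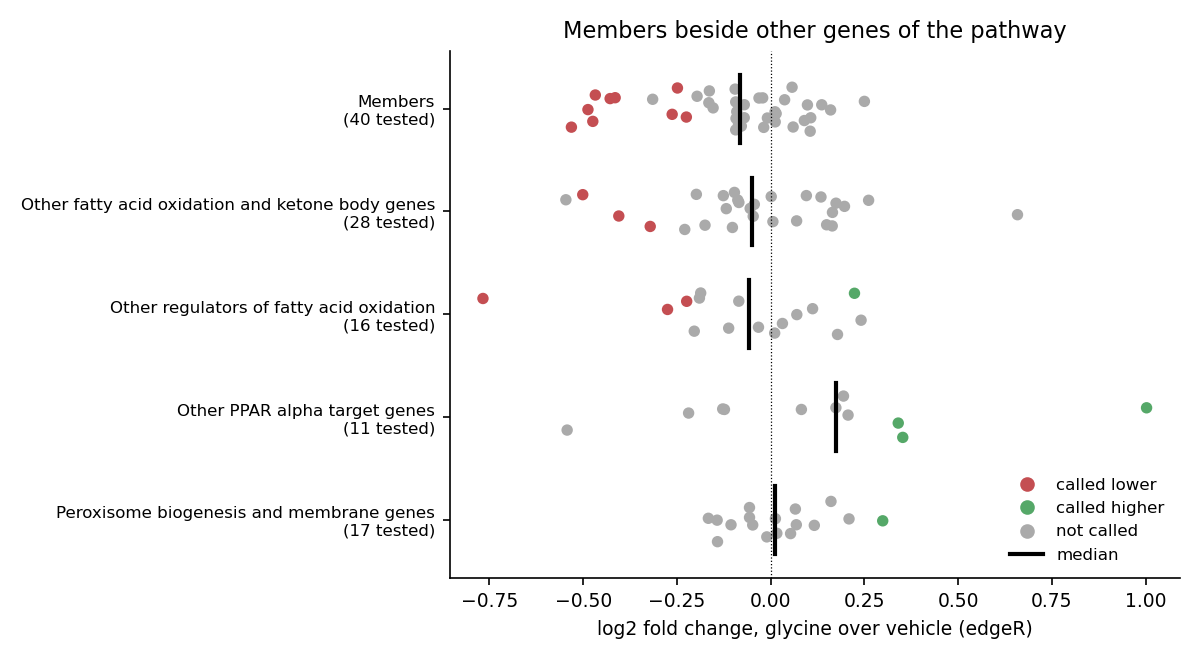
Log2 fold change, glycine over vehicle, of each tested gene in the 41 members and in 4 other lists, with called genes in colour and the median as a black bar. The 9 called members are all lower, while the 3 called genes among those listed as other PPARα targets are all higher.

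The hepatocyte markers also lay mostly below 0. Of the 7 markers, 6 had a log2 fold change below 0. Called lower were 2 (28.6%, against 6.54% of all tested genes), TTR at -0.32 (edgeR adjusted p = 0.00921) and APOA1 at -0.26 (0.0483). ALB was at -0.49 without being called (adjusted p = 0.0764), at 9038, 5366 and 8660 CPM with vehicle and 4682, 5344 and 6405 CPM with glycine. Their part in the changes of the members was not tested.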

How the data were processed

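Total RNA of 6 libraries, 3 per group, was sequenced, and groups were taken from the treatment labels. The deposited files hold raw counts of reads per gene, which per the labels the authors made with Trimmomatic 0.36, STAR 2.5.2b and featureCounts (Subread 1.5.2) on GRCh38. The annotation release and strand setting are not given in the sources used here. Other genes overlap the exons of uncalled members, among them ACOT8 (35.3% of exon length), ECI2 (29.8%), SCP2 (20.7%), HACL1 (15.4%) and DECR2 (14.1%). Coordinates are those of the files, and all 41 members had the same start and end in GENCODE 29. Replicates differed by more than counting noise.

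The members and lists were chosen with earlier results of these data known. Counts were tested with edgeR 4.0.16 in R 4.3.3 (quasi-likelihood, two-sided) after its expression filter (minimum count 10, minimum total 15) and TMM scaling, with group as the only term. P-values were adjusted by Benjamini-Hochberg over 15492 genes, with a threshold of 0.05. They set the group difference against the spread between these samples, moderated across genes. SE was the log2 fold change divided by the square root of F. CPM used TMM-scaled library sizes, and TPM the deposited gene lengths. The floor of 3 counts covers counting error only. All 41 members and 4 further lists were named by a rule by role, with library values for every called member and the regulators. Alternatives were 3 other scalings, 2 filters, DESeq2 1.42.0, limma 3.58.1 voom, a replicate block and removal of each library. Scripts were tested on simulated counts. The values of 1 gene of the further lists are not reported here.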

Additional observations from a re-analysis of the deposited data

How the results depend on the processing

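The number of members called lower, 9 in the main analysis, was 9 under each other scaling and filter, DESeq2 and limma-voom, and 7 to 9 when single libraries were left out. The number called higher was 0 throughout, except 1 (DECR2) without vehicle replicate 3. Of the 9, SLC25A20, ACADSB, BDH1, PPARA and FABP1 were called in all 14 alternatives, and of the 40 tested members 28 kept their direction and their side of the threshold in all 14. Over all genes, single removals gave 587 to 926 called higher and 655 to 1010 called lower, against 1040 and 1013, with fewer samples in each fit.

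The replicate numbers gave no sign of pairing, as the deviations of same-numbered libraries correlated at -0.0577, -0.0268 and -0.00258. Those of differently numbered libraries correlated at -0.198 to 0.214, the highest being 0.214 (vehicle 2 against glycine 1), 0.214 (vehicle 1 against glycine 3) and 0.180 (vehicle 3 against glycine 2). These highest pairs take in each library once, and all other pairs correlated negatively. Deviations were taken from the mean of each group of 3, so a positive pair by itself pulls the other pairs of its libraries below 0. For its cell-based assays the study reports that every experimental day held both control and treated samples. The labels give no experimental day, so a pairing by day other than by number was not tested. The main fit took no pairing into account. With a replicate block, 8 members were called lower and none higher, and 866 genes were higher and 918 lower.

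Uncalled members near 0 changed sign when single libraries were left out, with log2 fold changes of -0.0898 to 0.0917 for CPT1A, -0.0232 to 0.0388 for ECHS1, -0.0539 to 0.0731 for ECI1, -0.0067 to 0.0726 for ABCD3, -0.0330 to 0.0205 for ACOX2 and -0.0468 to 0.0932 for ACOT1, and ACOX2 was at 0.0055 with total count scaling. The cause was not tested. By TPM, 26 members had a lower mean with glycine and by CPM 27. With a floor of 3 counts per library, the depth could not resolve PDK4.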

Other observations

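The genes for building peroxisomes held 1 call. Of 20 peroxisome biogenesis and membrane genes, 17 were tested, 1 was called higher (5.88%, against 6.71% of all tested genes) and none lower. Their median log2 fold change was 0.01. The called gene was PEX10, a peroxisomal ubiquitin ligase needed for matrix protein import, at 36.1, 37.9 and 37.4 CPM with vehicle and 46.6, 45.7 and 44.8 CPM with glycine (log2 fold change 0.30 ± 0.062 SE, edgeR adjusted p = 0.00681). RER1 on the opposite strand overlaps 39.1% of its exon length.

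Within each library, the ratio of OXCT1 to BDH1 in TPM was 0.101, 0.129 and 0.0985 with vehicle and 0.187, 0.186 and 0.186 with glycine. This ratio had to separate, because OXCT1 was higher and BDH1 lower in every glycine library. The ratios of ETFA to ETFB, CPT1A to CPT2 and ACAA1 to ACAA2 overlapped between the groups. The ratio of ACOT1 to ACOT2, whose reads cannot be fully told apart, was 0.478, 0.494 and 0.526 with vehicle and 0.548, 0.560 and 0.585 with glycine. The ratio of HADHA to HADHB, whose transcription starts face away from each other 307 bases apart, was 2.44, 2.80 and 2.55 with vehicle and 2.69, 2.44 and 2.38 with glycine, with overlap.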
